A study of Mus musculus with 3 samples.

Results

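The genes that license, copy and supply DNA during S phase were followed in J774A.1, an established macrophage-like cell line of the mouse. They were chosen by name as 43 genes of DNA replication and deoxynucleotide synthesis, and 42 of them, of 27572 genes on the arrays, were found under those names. Gins2 was the exception, since no spot carries that name. A probe named 4833427B12Rik is assigned to Gins2 by RefSeq, and was left out because the genes were chosen by name. The cells were cultured for 6 h in EBSS with 10 µM of the p38 MAP kinase inhibitor SB202190, in EBSS alone, or in RPMI with 10% fetal bovine serum. EBSS is a buffered salt solution with glucose that holds no amino acids, so EBSS cultures lacked amino acids and serum. The cells of all 3 conditions are the same line, with no label of a genetic change.

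RNA was compared on 3 two-colour arrays that form a closed loop, in which each condition was read in Cy5 on 1 array and in Cy3 on another. Each condition is thus 1 sample with 2 channels, so the effect of a medium and the difference between single cultures cannot be told apart, and no test between conditions was possible. Ratios are least-squares log2 ratios over the loop. Their technical standard error (SE) comes from how far the 3 arrays fail to close the loop for genes of like intensity, and it leaves out the spread between cultures. A gene was called when it differed by a log2 ratio of 1 or more and the 2 paths through the loop (the array of both conditions, and the other 2 arrays) each gave 0.5 or more in that direction. In at least 1 of the compared conditions, both channels of the probe also had to be marked as well above background.

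Before a cell divides, the origin recognition complex, CDC6 and CDT1 load the MCM helicase onto DNA, and geminin blocks CDT1 once S phase has begun. The helicase is then activated, RPA coats the unwound strands, and the polymerases alpha, delta and epsilon copy them with the PCNA clamp and its RFC loader. Ribonucleotide reductase, thymidine kinase and thymidylate synthase supply deoxynucleotides, and E2F factors with cyclin E drive transcription of many of these genes at the border of G1 and S phase.

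All 42 genes were well above background in all 6 channels, with a median technical SE of 0.13 against 0.11 for all measured genes. The arrays had 40.1% to 49.9% of spots well above background per channel. Of 17 macrophage markers, 16 were well above background in all 6 channels and Cx3cr1 in only some. Their summed intensity was 305899 in EBSS with SB202190, 360066 in EBSS and 427620 in RPMI. Of 24 markers of other cell types, 14 were in no channel above background and 3 (Acta2, Hba-a1 and Ncam1) were in all 6. Their sums were 26794 in EBSS with SB202190, 26136 in EBSS and 30446 in RPMI. The part of these sums in the results was not tested.

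The promoters of the genes are shown first. The genes were chosen by name and not by letters recognised by E2F factors. Since E2F factors drive many of these genes, as said above, the share with such letters is not independent of that choice. RefSeq promoters of build GRCm38.p6, from 250 bases before to 50 bases after a gene's start, were matched for 36 of the 42 genes (41 promoters). Gmnn, Mcm4, Gins1, Rfc2, Pole and Ccne2 were not matched. Both strands were searched for the E2F letters TTTGGCGC, TTTCCCGC, TTTCGCGC and TTTGCCGC, the CCAAT box CCAAT, the GC box GGGCGG and the CHR letters TTTGAA, an element known from genes of late cell cycle. The E2F letters were in a promoter of 13 of the 36 genes (36.1%), against 2.60% of 27025 genes in the table. The GC box was in 77.8% of the genes against 38.2%, the CCAAT box in 55.6% against 41.1%, and the CHR letters in 5.56% against 20.2%. A gene was counted when any of its promoters in the table held the letters, and a match describes letters, not a bound site. The 27025 genes were not matched to the 36 in base content.

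The 150 bases before the start are printed for 5 genes, 5′ to 3′ on the strand of the gene, with E2F, CCAAT and GC box letters in capitals. Pold1, Tk1 and Ccne1 are shown because their log2 ratios after loess were the largest in size among the 42 genes. Mcm6 and Orc1l are shown because they hold E2F letters upstream while their ratios were under 1 in size. They lie at chr7:44548816-44548965 (minus strand) for Pold1, chr11:117826015-117826164 (minus) for Tk1, chr7:38107491-38107640 (minus) for Ccne1, chr1:128359706-128359855 (minus) for Mcm6 and chr4:108579304-108579453 (plus) for Orc1l, in GRCm38.p6.
Pold1: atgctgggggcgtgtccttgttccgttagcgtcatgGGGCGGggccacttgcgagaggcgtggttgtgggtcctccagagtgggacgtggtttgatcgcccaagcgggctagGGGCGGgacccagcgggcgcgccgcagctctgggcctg
Tk1: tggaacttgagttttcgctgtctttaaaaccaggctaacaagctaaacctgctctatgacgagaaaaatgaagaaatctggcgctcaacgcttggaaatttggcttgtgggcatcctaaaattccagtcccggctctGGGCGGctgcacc
Ccne1: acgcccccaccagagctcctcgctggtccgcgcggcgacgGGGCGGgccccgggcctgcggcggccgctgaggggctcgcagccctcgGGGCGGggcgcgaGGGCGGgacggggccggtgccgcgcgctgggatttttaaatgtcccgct
Mcm6: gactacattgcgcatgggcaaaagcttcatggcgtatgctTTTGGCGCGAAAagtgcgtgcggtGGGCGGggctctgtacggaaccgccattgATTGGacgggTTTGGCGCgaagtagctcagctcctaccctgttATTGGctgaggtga
Orc1l: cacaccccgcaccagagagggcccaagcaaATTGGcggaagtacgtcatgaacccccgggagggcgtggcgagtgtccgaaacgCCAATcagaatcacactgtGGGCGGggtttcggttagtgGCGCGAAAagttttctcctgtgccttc

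In Mcm6 the E2F letters begin at bases -110, -106 and -47 from the start, where -1 is the base just before it, and the first 2 overlap. In Orc1l they begin at -27, on the opposite strand. In Pold1 and Pole2 the letters lie after the start, at bases 40 and 11 on the opposite strand, and are shown in 30-base windows in which capitals mark the E2F letters only, at chr7:44548766-44548795 (minus) and chr12:69228162-69228191 (minus).
Pold1, after the start: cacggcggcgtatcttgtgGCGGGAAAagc
Pole2, at the start: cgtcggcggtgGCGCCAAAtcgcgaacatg

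Tk1 and Ccne1 held none of these 4 E2F words in the searched window. The median log2 ratio of genes with the letters was -0.28 in EBSS against RPMI, and that of matched genes without them was -0.48. With SB202190 in EBSS against EBSS the medians were 0.26 with and 0.25 without, and with SB202190 in EBSS against RPMI -0.13 with and -0.20 without. These medians are after loess, where genes with and without the letters had the same sign in each comparison. With a constant per array, described below, the signs were opposite in each. Every one of those medians was smaller in size than the technical SE of its gene (0.11 to 0.18 after loess), so their signs are not settled. The median genes with and without the letters were then Uhrf1 at 0.10 and Dut at -0.005 in EBSS against RPMI. With SB202190 against EBSS they were Mcm7 at -0.05 and Ung at 0.04, and with SB202190 against RPMI Pold1 at 0.07 and Pola2 at -0.03.

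In EBSS the replication genes lay below RPMI as a group after loess, whereas the group's shift from all genes was -0.001 with a constant per array, as described below. Single genes ran from 1.27-fold higher to 3.51-fold lower intensity. The median log2 ratio of the 42 genes was -0.43 while that of all 11873 measured genes was 0.00. Negative ratios were seen for 36 genes and positive for 6. Ratios of -0.5 or below were measured for 17 genes (40.5%), against 11.8% of all genes, and ratios of 0.5 or above for 0, against 13.2%. In this comparison 5 genes were called lower (11.9%), namely Pold1, Ccne1, Tk1, Gmnn and Pole2, where 2.82% of all measured genes were called lower. None was called higher, where 4.48% of all genes were. A lower signal in bulk RNA can come from fewer cells in S phase or from less RNA per cell, and these cannot be told apart here.

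Both EBSS channels lay below both RPMI channels for 34 genes (81.0%), where 39.9% of all measured genes did so. The channels overlapped for Cdt1, E2f1, Orc6l and Rfc1. Both EBSS channels lay above both RPMI channels for Mcm10, Pola1, Prim1 and Ung, where 37.3% of all genes did so.

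**Figure D1:**
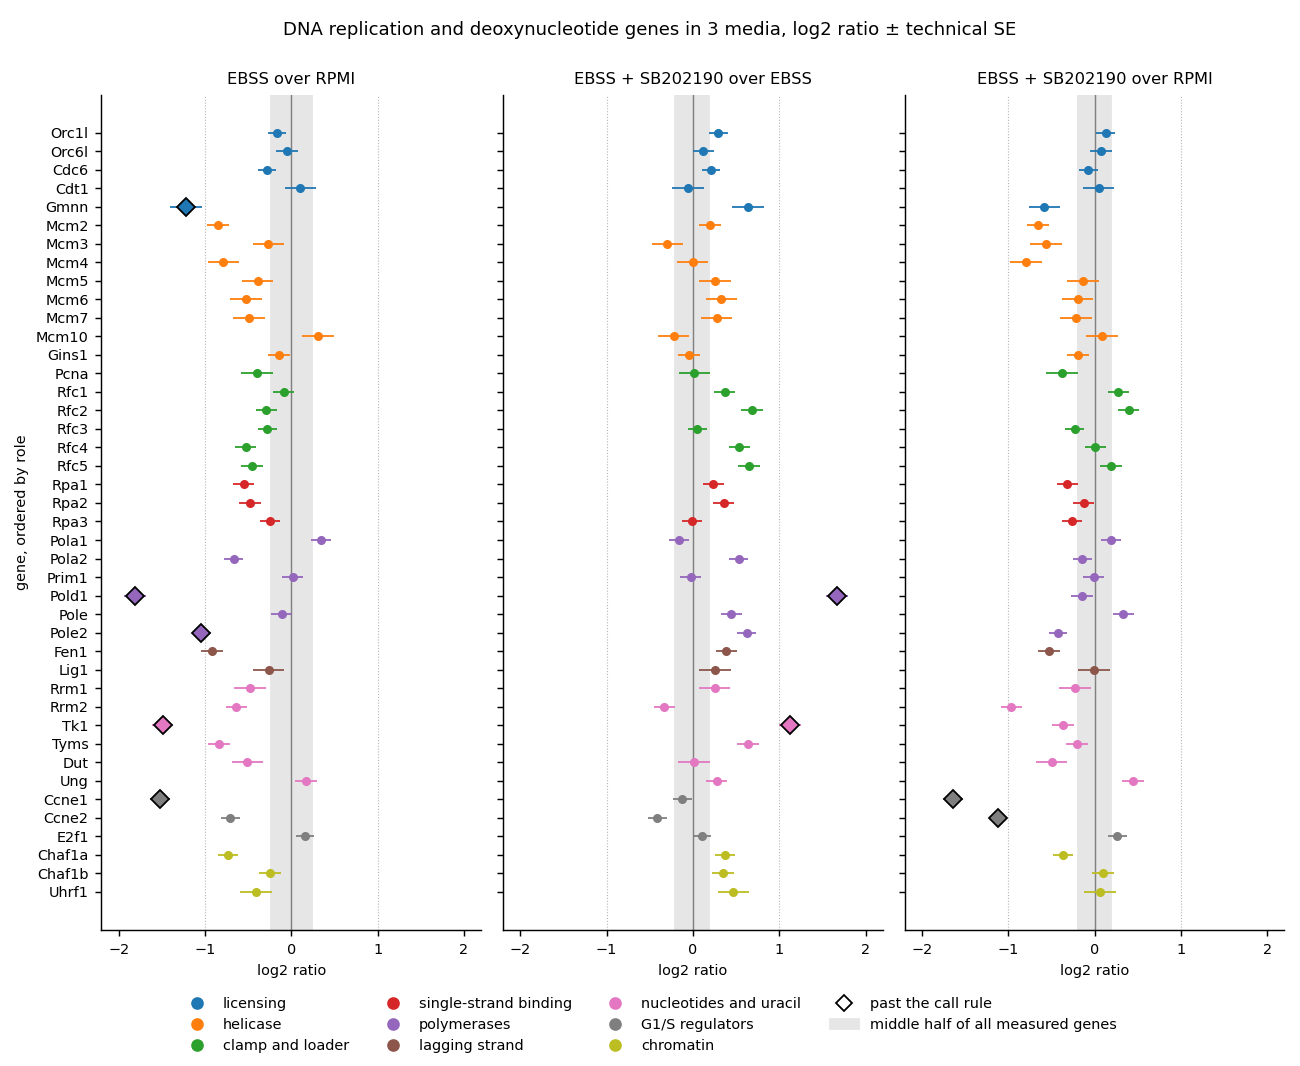
Log2 ratios (horizontal axis) of the 42 genes (rows, by role) in EBSS over RPMI, EBSS with SB202190 over EBSS and EBSS with SB202190 over RPMI. Bars are ± 1 technical SE, the grey band holds the middle 50% of measured genes, dotted lines mark log2 ratios of -1 and 1, and outlined diamonds are the called genes, which are 5 lower on the left, 2 higher in the middle and 2 lower on the right.

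The size of this group shift depends on how the arrays are normalized, and this bears on every group value and on the sign of many small ratios below. With a constant per array in place of loess, centred on probes well above background, the median of the 42 genes minus that of all genes was -0.001 for EBSS against RPMI, -0.013 for SB202190 in EBSS against EBSS and -0.030 for SB202190 in EBSS against RPMI. Without loess the ratios of all genes moved with intensity, with bin medians between -0.69 in the dimmest and 0.55 in the brightest bin for EBSS against RPMI. The 42 genes are bright, with a median log2 intensity of 12.7 against 10.6 for all measured genes. Set against genes of the same intensity bin, without loess, the shifts were -0.37, 0.21 and -0.18 in the same order, and 37, 12 and 29 of the 42 genes lay below their bin. The called genes were the same 5, 2 and 2 in that form. That form takes out the trend with intensity, as loess does, so it is not an independent check of the loess values. It was also chosen after seeing the data. Without that reference to intensity, centring on probes well above background ended the calls of Gmnn (EBSS against RPMI), Tk1 (with SB202190 against EBSS) and Ccne2 (with SB202190 against RPMI). Centring on all probes, which moved the median of all genes to 0.81 in EBSS against RPMI, left of the calls above only that of Ccne1 with SB202190 against RPMI, and gave Gmnn 0.13 in EBSS against RPMI.

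Single ratios that were not called also changed sign between loess and the constant per array centred on probes well above background. This was so for 16 of the 42 genes in EBSS against RPMI, 10 with SB202190 against EBSS and 7 with SB202190 against RPMI. With that constant, 22 of the 42 genes were positive in EBSS against RPMI, where 6 were after loess. The ratios below are those after loess, and a value with the constant is given where the sign turned.

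**Figure D2:**
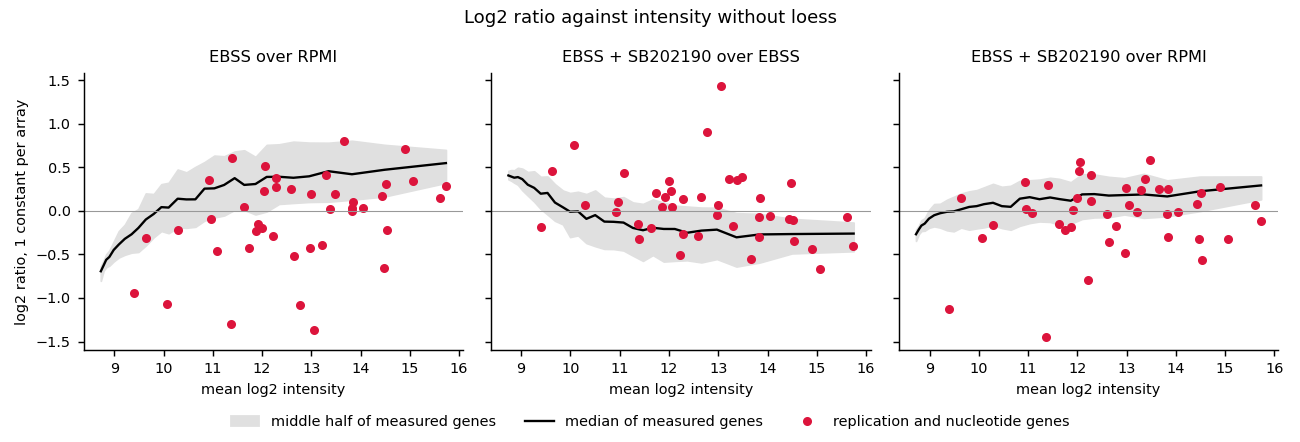
Log2 ratio with a constant per array (vertical axis) against mean log2 intensity (horizontal axis) in the 3 comparisons, with the median (line) and middle 50% (band) of measured genes in 30 intensity bins and the 42 genes as points. In EBSS over RPMI the line climbs from -0.69 to 0.55 and 37 of the 42 points lie below the median of their bin.

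In EBSS with SB202190 many of the genes had higher signals than in EBSS alone after loess, while the group's shift had the other sign, -0.013, with a constant per array. The median log2 ratio was 0.26, against 0.00 for 11692 measured genes, with 31 positive and 11 negative values. Ratios of 0.5 or above were measured for 9 genes (21.4%), against 7.26% of all genes, and ratios of -0.5 or below for 0, against 11.1%. Pold1 and Tk1 were called higher (4.76%), where 0.889% of all measured genes were, and none was called lower, where 2.93% of all genes were. With the authors' deposited ratios, 3 of the 42 genes were called higher there, where 6.68% of all genes were. Both channels with SB202190 lay above both EBSS channels for 27 genes (64.3%), where 37.1% of all genes did so, and below them for 4, where 34.2% did. The remaining 11 overlapped.

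Against RPMI, cells in EBSS with SB202190 had a median log2 ratio of -0.16 for the 42 genes after loess (a shift of -0.030 with a constant per array), while all 11863 measured genes had 0.01. Values were negative for 28 genes and positive for 14. The 8 genes at -0.5 or below (Ccne1, Ccne2, Rrm2, Mcm4, Mcm2, Gmnn, Mcm3 and Fen1) make up 19.0% of the 42, against 9.45% of all genes, and 0 were at 0.5 or above, against 7.30%. Ccne1 and Ccne2 were called lower (4.76%), where 2.43% of all measured genes were. None was called higher, where 1.47% of all genes were. Both channels with SB202190 lay below both RPMI channels for 22 genes (52.4%), where 32.9% of all genes did so, above them for 7, where 36.7% did, and overlapped for 13.

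The 3 comparisons share their RNA, so no relation between them is read here, and the ratios of a gene are given side by side below.

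**Figure D3:**
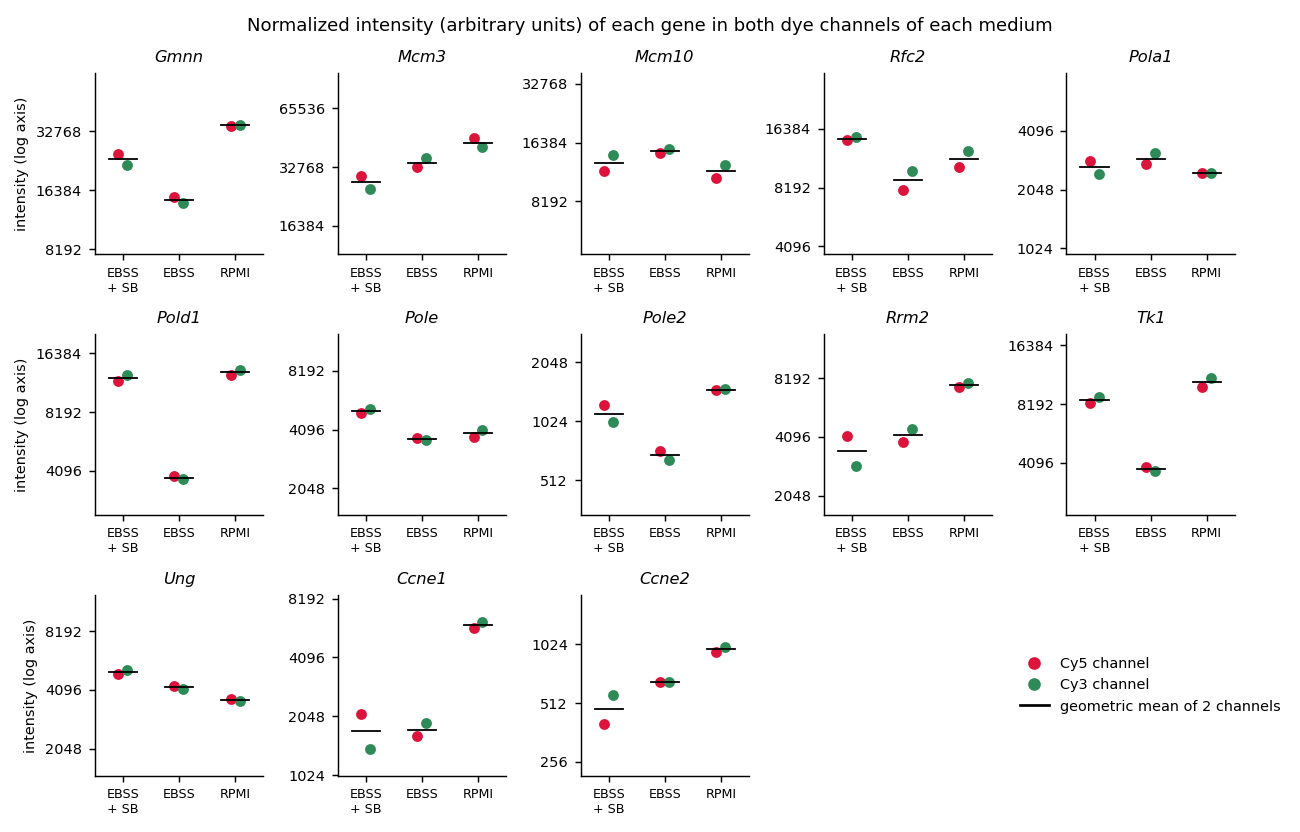
Normalized intensity (vertical log axis, arbitrary units) of the 13 genes described with all channels, in EBSS with SB202190 (EBSS + SB), EBSS and RPMI from left to right. Red points are Cy5 and green points Cy3 channels, and lines are geometric means of 2 channels. In Pold1 and Tk1 the EBSS channels are far below the others, and the channels with SB202190 lie below those of RPMI without overlap. Ccne1, Ccne2 and Rrm2 are low in both EBSS media.

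Among the licensing genes, geminin stood apart from the loading factors. Gmnn, which encodes the inhibitor of CDT1, had intensities of 22098 and 25150 in EBSS with SB202190, 14166 and 15061 in EBSS, and 34950 and 35497 in RPMI. The EBSS channels were lowest, the RPMI channels highest and no groups overlapped. Its log2 ratio was -1.22 ± 0.18 (technical SE) in EBSS against RPMI, 0.64 ± 0.18 with SB202190 against EBSS and -0.58 ± 0.18 with SB202190 against RPMI. After loess, the loading factors were close to RPMI in both EBSS media. In EBSS against RPMI the log2 ratio was -0.28 for Cdc6, which recruits the helicase to origins, and 0.11 for its partner Cdt1. The origin recognition subunits gave -0.17 for Orc1l (current symbol Orc1) and -0.05 for Orc6l (Orc6), and with SB202190 against RPMI these 4 genes lay between -0.07 and 0.13. With the constant per array, Orc6l turned to 0.42 in EBSS against RPMI and -0.18 with SB202190 against EBSS, and Cdc6 to 0.02 with SB202190 against RPMI. Cdt1 kept its sign but had 0.71 in EBSS against RPMI with the constant, where Gmnn had -0.65. How close the loading factors were to RPMI thus depended on the normalization.

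The helicase subunits were not uniform. In EBSS against RPMI the log2 ratios were -0.85 for Mcm2, -0.79 for Mcm4, -0.52 for Mcm6, -0.49 for Mcm7, -0.39 for Mcm5 and -0.27 for Mcm3, all subunits of the MCM2-7 ring. With the constant per array, Mcm3, Mcm5, Mcm6 and Mcm7 turned to 0.34, 0.17, 0.14 and 0.04, while Mcm2 and Mcm4 kept their sign. After loess, Mcm2 and Mcm3 differed by more than the sum of their technical SEs, 0.13 and 0.18, and neighbours in this order did not. With SB202190 against EBSS, Mcm5, Mcm6 and Mcm7 had 0.26, 0.33 and 0.27, Mcm2 had 0.20 and Mcm4 had 0.00. The values with the constant were -0.09, -0.07 and -0.05 for Mcm5, Mcm6 and Mcm7 and -0.05 for Mcm2. Against RPMI, cells with SB202190 had -0.65 for Mcm2, -0.79 for Mcm4, -0.13 for Mcm5, -0.19 for Mcm6 and -0.21 for Mcm7, and Mcm5 and Mcm6 turned to 0.08 and 0.07 with the constant.

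Mcm3 had intensities of 25361 and 29559 in EBSS with SB202190, 36466 and 32665 in EBSS, and 45978 and 41607 in RPMI. The channels with SB202190 were lowest and RPMI highest, with no overlap. This gave a log2 ratio of -0.30 ± 0.18 with SB202190 against EBSS and -0.56 ± 0.18 with SB202190 against RPMI, and another probe gave -0.27 and -0.38. Mcm10, which helps to activate the loaded helicase, had 14092 and 11777 in EBSS with SB202190, 15161 and 14497 in EBSS, and 10784 and 12590 in RPMI. EBSS was highest and the other media overlapped. Its log2 ratio in EBSS against RPMI was 0.31 ± 0.18, but the array of both media gave 0.49 and the other 2 arrays -0.06. Gins1, of the GINS complex that travels with the helicase, had -0.14 in EBSS against RPMI, -0.05 with SB202190 against EBSS and -0.19 with SB202190 against RPMI, and 0.25 in EBSS against RPMI with the constant.

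The 6 genes of the clamp and its loader were called in none of the 3 comparisons. Of all measured genes, 0.889% to 4.48% were called per direction, so no call among so few genes does not set them apart. The helicase, RPA and lagging-strand genes had no call either. Several ratios of the clamp and loader genes differed between arrays and between normalizations. In EBSS against RPMI the log2 ratios were -0.40 for Pcna and, for the loader, -0.09 for Rfc1, -0.29 for Rfc2, -0.28 for Rfc3, -0.53 for Rfc4 and -0.45 for Rfc5. With the constant per array, Pcna, Rfc1, Rfc2 and Rfc5 turned to 0.28, 0.28, 0.19 and 0.02. In EBSS with SB202190 against EBSS, Rfc2 had 0.68, Rfc5 0.65, Rfc4 0.54, Rfc1 0.37 and Rfc3 0.05, while Pcna had 0.02 and, with the constant, -0.40. The order of Pcna and the loader turned on the path there. Over the other 2 arrays alone Pcna had 0.57, Rfc4 0.75, Rfc5 0.27, Rfc2 0.26, Rfc3 0.22 and Rfc1 -0.17, and on the array of both media Pcna had -0.26 and Rfc1 0.63. Against RPMI, the values with SB202190 were 0.28 for Rfc1, -0.23 for Rfc3, 0.01 for Rfc4, 0.19 for Rfc5 and -0.38 for Pcna. In EBSS against RPMI the paths of Pcna also differed in sign, with -0.67 on the array of both media and 0.16 over the other 2 arrays, and so did those of Rfc1, with 0.18 and -0.63.

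Rfc2 had intensities of 14810 and 14313 in EBSS with SB202190, 9947 and 7966 in EBSS, and 10479 and 12625 in RPMI. The channels with SB202190 were above all others, and EBSS was below RPMI without overlap. Its log2 ratio with SB202190 against EBSS was 0.68 ± 0.13, from 0.89 on the array of both media and 0.26 over the other 2 arrays, and another probe gave 0.62. With SB202190 against RPMI it was 0.39 ± 0.13.

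The subunits of RPA, which coats single-stranded DNA, lay between -0.55 and -0.25 in EBSS against RPMI. Rpa1, the large subunit that binds DNA, had -0.55, Rpa2 -0.48 and Rpa3 -0.25, with technical SEs of 0.12. With SB202190 against EBSS they had 0.24, 0.35 and -0.01, and with SB202190 against RPMI -0.32, -0.12 and -0.26, in the same order. With the constant, Rpa3 turned to 0.04 in EBSS against RPMI and Rpa2 to 0.01 with SB202190 against RPMI.

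After loess, the polymerase genes held the strongest difference of the 42, that of Pold1 in EBSS against RPMI. With the constant, Ccne1 at -1.45 with SB202190 against RPMI was just larger in size than Pold1 at 1.44 with SB202190 against EBSS. Pold1, the catalytic subunit of polymerase delta, which copies the lagging strand, had intensities of 12604 and 11855 in EBSS with SB202190, 3720 and 3849 in EBSS, and 12666 and 13458 in RPMI. The EBSS channels lay far below the other 4, and the channels with SB202190 were just below those of RPMI. Its log2 ratio was -1.81 ± 0.13 in EBSS against RPMI, 3.51-fold lower and the 37th lowest of 11873 measured genes. In EBSS with SB202190 against EBSS it was 1.67 ± 0.13, 3.18-fold higher and the 14th highest of 11692, and against RPMI -0.14 ± 0.13, which turned to 0.07 with the constant per array. Another Pold1 probe had 11995 and 11650 in EBSS with SB202190, 3461 and 4239 in EBSS, and 12436 and 13004 in RPMI, and gave -1.78, 1.56 and -0.22 in the same order. The difference was thus seen by both probes and in both dyes.

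Pole2, an accessory subunit of polymerase epsilon, had intensities of 1010 and 1242 in EBSS with SB202190, 647 and 725 in EBSS, and 1474 and 1503 in RPMI. EBSS was lowest, RPMI highest, and no groups overlapped. It had a log2 ratio of -1.04 ± 0.11 in EBSS against RPMI, 0.62 ± 0.11 with SB202190 against EBSS and -0.42 ± 0.11 with SB202190 against RPMI. The catalytic subunit, Pole, had 5251 and 4956 in EBSS with SB202190, 3610 and 3701 in EBSS, and 3746 and 4098 in RPMI. Its EBSS channels were just below those of RPMI and the channels with SB202190 were above both. Its ratio was -0.11 ± 0.12 in EBSS against RPMI, within its technical SE and 0.23 with the constant, 0.45 ± 0.12 with SB202190 against EBSS and 0.33 ± 0.12 with SB202190 against RPMI.

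Polymerase alpha and its primase, which start each new strand, were not uniform either. Pola1, the catalytic subunit, had 2468 and 2874 in EBSS with SB202190, 3132 and 2781 in EBSS, and 2482 and 2495 in RPMI. EBSS was above RPMI, and the channels with SB202190 overlapped both. Its log2 ratio of 0.35 ± 0.12 in EBSS against RPMI was the highest of the 42 genes after loess. With the constant, Mcm10 at 0.80 and Cdt1 at 0.71 lay above Pola1 at 0.61. After loess, Pola2, the accessory subunit, had -0.67 ± 0.11 and the primase gene Prim1 had 0.02 ± 0.12. With SB202190 against EBSS the values were -0.16 for Pola1, 0.53 for Pola2 and -0.03 for Prim1. Against RPMI, those with SB202190 were 0.19, -0.14 and -0.01, the last of which was 0.11 with the constant.

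On the lagging strand, Fen1, the nuclease that trims the flaps of Okazaki fragments, had a log2 ratio of -0.92 ± 0.13 in EBSS against RPMI. Lig1, the ligase that seals the fragments, had -0.26 ± 0.18. In EBSS with SB202190 against EBSS they had 0.39 and 0.26, and with SB202190 against RPMI -0.53 and -0.01. With the constant, Lig1 turned in all 3 comparisons, to 0.31, -0.10 and 0.21.

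The enzymes of deoxynucleotide supply differed in their levels with the inhibitor. Tk1, thymidine kinase of the salvage pathway, had intensities of 8932 and 8306 in EBSS with SB202190, 3711 and 3912 in EBSS, and 9989 and 11169 in RPMI. The EBSS channels were lowest and RPMI highest, with no overlap. Its log2 ratio was -1.49 ± 0.13 in EBSS against RPMI (2.81-fold lower), 1.13 ± 0.13 with SB202190 against EBSS (2.19-fold higher) and -0.36 ± 0.13 with SB202190 against RPMI. Tyms, thymidylate synthase, had -0.84 ± 0.13 in EBSS against RPMI, 0.64 with SB202190 against EBSS and -0.20 with SB202190 against RPMI, and another probe gave -0.80, 0.60 and -0.19.

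Rrm2, the regulatory subunit of ribonucleotide reductase, was not higher with the inhibitor. Its intensities were 2918 and 4152 in EBSS with SB202190, 4506 and 3860 in EBSS, and 7365 and 7704 in RPMI. Both EBSS media lay well below RPMI and overlapped each other. The log2 ratio came to -0.64 ± 0.12 in EBSS against RPMI, -0.33 ± 0.12 with SB202190 against EBSS and -0.97 ± 0.12 with SB202190 against RPMI. Rrm1, the large subunit of the same enzyme, had -0.48, 0.25 and -0.23, and with the constant the first 2 turned to 0.03 and -0.06.

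Dut, which removes dUTP from the pool, had -0.51 in EBSS against RPMI, 0.01 with SB202190 against EBSS and -0.50 with SB202190 against RPMI, and another probe gave -0.52, -0.01 and -0.53. With the constant, its value with SB202190 against EBSS was -0.29. Ung, the glycosylase that removes uracil from DNA, had positive ratios against RPMI in both EBSS media. It had intensities of 5178 and 4920 in EBSS with SB202190, 4153 and 4287 in EBSS, and 3698 and 3608 in RPMI. The channels with SB202190 were highest and RPMI lowest, with no overlap. Its log2 ratio was 0.17 ± 0.12 in EBSS against RPMI, 0.27 ± 0.12 with SB202190 against EBSS and 0.45 ± 0.12 with SB202190 against RPMI. In the last comparison it was the highest of the 42 genes after loess, while with the constant Rfc2 at 0.59 lay above Ung at 0.56.

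The cyclins E, which activate CDK2 at the entry into S phase, were low in both EBSS media. Ccne1 had intensities of 1397 and 2112 in EBSS with SB202190, 1896 and 1615 in EBSS, and 5795 and 6213 in RPMI. The EBSS media overlapped each other and lay far below RPMI. This gave a log2 ratio of -1.52 ± 0.12 in EBSS against RPMI, -0.12 ± 0.12 with SB202190 against EBSS and -1.65 ± 0.12 with SB202190 against RPMI (3.13-fold lower). Another Ccne1 probe gave -0.63 in EBSS against RPMI and -0.70 with SB202190 against RPMI. The direction was thus shared and the size was not, and that probe would not have been called. It was dim, with 463 and 416 in EBSS with SB202190, 464 and 451 in EBSS, and 664 and 728 in RPMI. A Mcm4 probe well above background in no channel had 364 to 371. The part of the low signal in the smaller ratios was not tested.

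Ccne2 had intensities of 564 and 401 in EBSS with SB202190, 658 and 658 in EBSS, and 939 and 994 in RPMI. The channel at 401 was near the 364 to 371 of a Mcm4 probe that was well above background in no channel. The channels with SB202190 were lowest and RPMI highest, with no overlap. Its log2 ratio was -0.71 ± 0.11 in EBSS against RPMI, -0.41 ± 0.11 with SB202190 against EBSS and -1.12 ± 0.11 with SB202190 against RPMI. The ratio against EBSS was the lowest of the 42 genes there after loess, while with the constant it was -0.19 and Mcm3 had -0.67. The ratio with SB202190 against RPMI came from -1.31 on the array of both media and -0.74 over the other 2 arrays. Another probe gave -0.64, -0.26 and -0.91. E2f1, a transcription factor of the S phase programme, had 0.16, 0.11 and 0.27 in the same order, and -0.02 with the constant in the comparison with SB202190 against EBSS. Its paths through the loop differed in sign in EBSS against RPMI, with -0.08 on the array of both media and 0.62 over the other 2 arrays.

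The 3 genes that rebuild chromatin behind the fork were called in none of the 3 comparisons. Of all measured genes, 0.889% to 4.48% were called per direction, so no call among so few genes does not set them apart. Chaf1a and Chaf1b, subunits of the histone chaperone CAF-1, had -0.73 and -0.25 in EBSS against RPMI, and Uhrf1, which brings the maintenance DNA methyltransferase to new DNA, had -0.41. With the constant, Chaf1b turned to 0.19 and Uhrf1 to 0.10. With SB202190 against EBSS they had 0.37, 0.34 and 0.47, and with SB202190 against RPMI -0.36, 0.10 and 0.06.

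**Figure D4:**
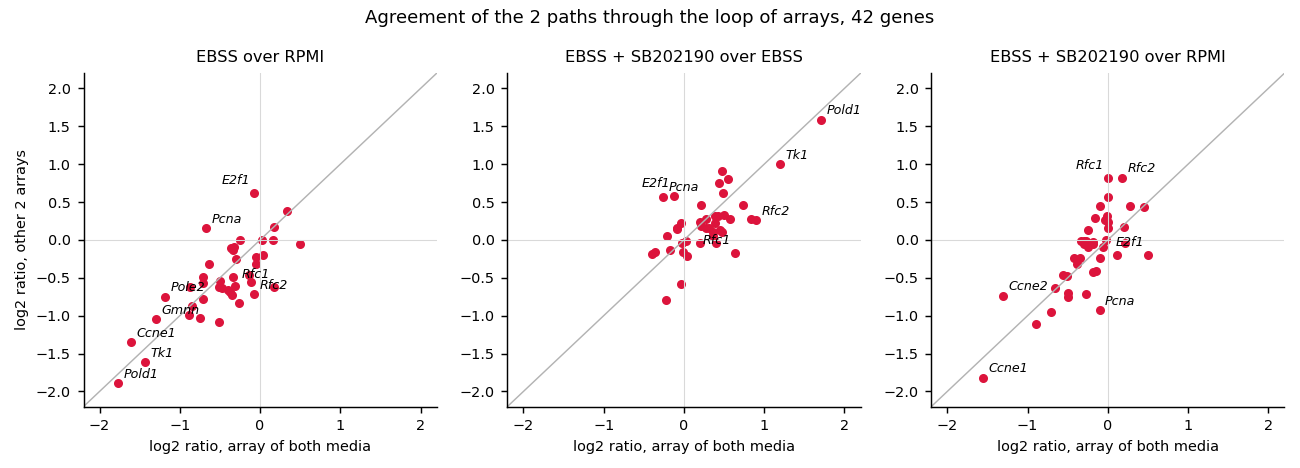
Log2 ratio from the array that held both media (horizontal axis) against that from the path through the other 2 arrays (vertical axis) for the 42 genes in the 3 comparisons, with the line of equality. Pold1 and Tk1 lie near the line in the left and middle panels, while E2f1, Pcna, Rfc1 and Rfc2, whose 3 arrays do not close the loop, lie off it.

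The paths through the loop had opposite signs for 6 genes in EBSS against RPMI, 11 with SB202190 against EBSS and 11 with SB202190 against RPMI, and the direction of those ratios is not settled. They include ratios that are not close to 0, such as Pcna at -0.40 and Mcm10 at 0.31 in EBSS against RPMI and Rfc1 at 0.37 with SB202190 against EBSS. Other probes were available for 16 of the genes, and for 12 genes such a probe was measured. It had the same sign in 12, 10 and 11 of them in the 3 comparisons and lay within 0.2 in 10, 11 and 10. The largest gaps were those of Ccne1, 0.90 in EBSS against RPMI and 0.95 with SB202190 against RPMI, and that of E2f1, 0.27 with SB202190 against EBSS.

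Further genes of replication and nucleotide supply, 60 of 61 of which were measured, had medians of -0.32 in EBSS against RPMI, 0.15 with SB202190 against EBSS and -0.05 with SB202190 against RPMI. With the constant per array these medians were -0.13, 0.10 and 0.04. In EBSS against RPMI 4 were called lower (6.67%, against 2.82% of all measured genes) and none higher (4.48% of all genes): Dna2, a nuclease of Okazaki fragments, at -1.39, Dtymk, thymidylate kinase, at -1.26, Tipin, of the fork protection complex, at -1.22, and Msh6, of mismatch repair, at -1.02. With SB202190 against RPMI E2f7, an E2F repressor, at -1.27 and Dna2 at -1.25 were called lower (3.33%, against 2.43% of all genes, a share near that of all genes). The accessory subunit Pold2 had -0.37 in EBSS against RPMI, where Pold1 had -1.81, and 0.51 with SB202190 against EBSS, while Pold3 and Pold4 had 0.25 and -0.11, and then -0.20 and 0.04.

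Mitosis genes, 34 of which were measured, had medians of -0.46 in EBSS against RPMI, -0.22 with SB202190 against EBSS and -0.66 with SB202190 against RPMI. With the constant the medians were -0.21, -0.20 and -0.50. In EBSS against RPMI 4 of them were called lower (11.8%, against 2.82% of all genes). With SB202190 against EBSS 4 were (11.8%, against 2.93%), and with SB202190 against RPMI 11 (32.4%, against 2.43%). None was called higher, where 4.48%, 0.889% and 1.47% of all genes were in the same order. The medians of the 42 replication genes were -0.43, 0.26 and -0.16 in the same order, and no test of the difference between the lists was possible with 1 sample per condition.

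**Figure D5:**
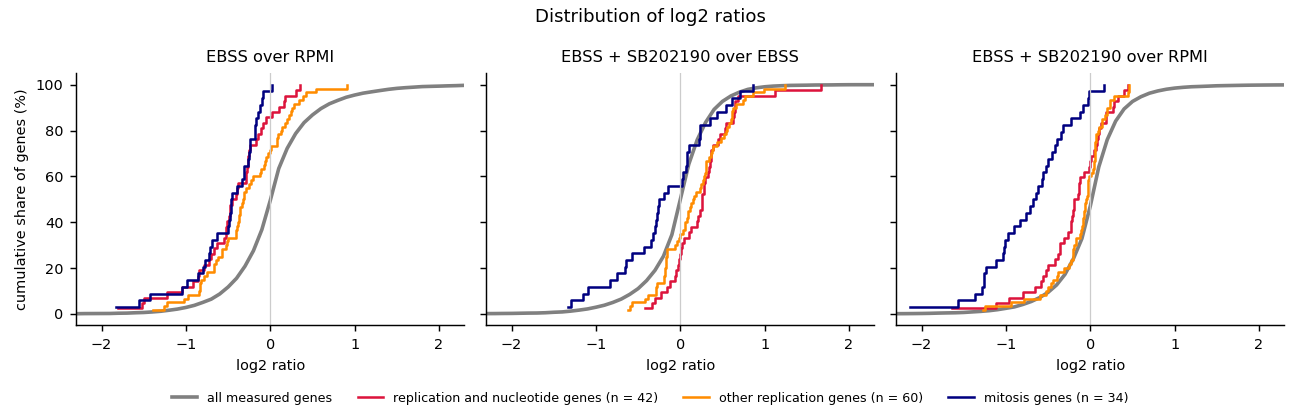
Cumulative share of genes (vertical axis, percent) at or below each log2 ratio (horizontal axis) for the 42 genes, 60 other replication genes, 34 mitosis genes and all measured genes in the 3 comparisons. The replication curve lies left of all genes in EBSS over RPMI (median -0.43) and right of them in EBSS with SB202190 over EBSS (0.26). In the latter panel the mitosis curve lies to the left (-0.22). With a constant per array, the shifts of the 42 genes were -0.001 in EBSS over RPMI and -0.013 in EBSS with SB202190 over EBSS.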

How the data were processed

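Total RNA of 3 conditions was read on 3 two-colour Agilent whole mouse genome arrays of 1 slide. Per the labels, the Cy3 and Cy5 channels held EBSS and RPMI on array 1, EBSS with SB202190 and EBSS on array 2, and RPMI and EBSS with SB202190 on array 3. Media were taken from the source names, although the study's design text allows a reading with RPMI throughout. The sources used here give neither the solvent of the control cells nor the number of RNA extracts per condition. The images were quantified by Agilent Feature Extraction (9.5.3.1), per the submitters' processing notes and the file headers. The deposited files hold mean intensities and background median intensities per spot, and log10 ratios of intensities that the software had background-subtracted and dye-normalized, per the file headers. The authors' deposited series table holds uncentred log2 ratios, Cy5 over Cy3, of the same intensities (medians -0.0854, -0.0766 and -0.166).

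From the mean intensities, normexp background correction (offset 50) and loess within arrays, with control spots at weight 0, were run in limma 3.58.1 (R 4.3.3). Later steps used Python 3.11.15, numpy 2.4.6, pandas 2.3.3 and matplotlib 3.10.9. Spots marked as controls (1639 of 45018) or as outliers (136 to 178 an array) were dropped, and none was saturated. Of 41174 probes, 24375 were named through a RefSeq accession, 6301 by a current symbol, 2426 by a synonym and 8072 by the name in the files. A gene stands for its probe of highest mean intensity, and levels are not set against each other between probes. Printed intensities are background-corrected and normalized within arrays by loess and between arrays on the mean of both channels. Technical SEs came from the loop sum in 30 intensity bins. The code was tested on simulated data. No p-value was computed, since each condition is 1 sample, and the number of arrays limits the precision. The genes, the lists and the rules were chosen with earlier results of these data known. All members may be named, and those called in any comparison, or among the 3 highest or 3 lowest in one, are given with all 6 channels. Alternatives covered background correction, centring, scaling, the scanner's and the authors' ratios, the filter on dim probes, the choice of probe, the arrays used and the fold of the call. Promoters are RefSeq sequences on GRCm38.p6. A result with SB202190 against EBSS, from the list of further replication genes, is not reported here.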

Additional observations from a re-analysis of the deposited data

How the results depend on the processing

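With 1 sample per condition, no replicate could be left out. No paired analysis was possible because each condition is 1 sample and the labels carry no replicate numbers. The genes' median minus that of all genes was -0.433 in EBSS against RPMI, 0.255 with SB202190 in EBSS against EBSS and -0.179 with SB202190 in EBSS against RPMI. It became -0.001, -0.013 and -0.030 under either median centring, whether over all probes or over those well above background. It was -0.590 in EBSS against RPMI from the other 2 arrays alone, and 0.382 with SB202190 against EBSS under equal spread between arrays. An alternative chosen after seeing the data, median centring relative to genes of the same intensity, gave -0.374, 0.211 and -0.184.

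Of the replication genes, 5 were called lower in EBSS against RPMI, 13 from 1.5-fold (both paths at 0.3) and 0 under centring over all probes, which moved the median of all genes to 0.81 and called 10 of them higher in place of 0. Higher calls with SB202190 against EBSS were 2, and 5 from 1.5-fold, 1 (Pold1) under centring over probes well above background and 0 over all probes, where the median of all genes was -0.45. Lower calls there were 0, and 1 (Ccne2) with log ratios as the scanner software gives them and with the authors' series table. With either of these ratios, higher calls there were 3 of the 42 genes. Of all genes, the authors' table called 6.68% higher and 6.61% lower there. Both also called 7 of the 42 genes lower in EBSS against RPMI, where the authors' table called 9.22% of all genes. With SB202190 against RPMI they called 3 lower, where that table called 6.55% of all genes. Lower calls with SB202190 against RPMI were 2, and 5 from 1.5-fold and 1 (Ccne1) under equal spread and under either centring. Among called ratios, that of Gmnn in EBSS against RPMI was reversed to 0.13 under centring over all probes. Ratios that were not called changed sign under centring over probes well above background for 16, 10 and 7 of the 42 genes in the 3 comparisons. From the other 2 arrays alone, Pole2 lost and Ccne2 and Tyms gained a call in EBSS against RPMI, and Ccne2 lost and Rrm2 gained one with SB202190 against RPMI. The shift with SB202190 against RPMI was -0.064 from those arrays and -0.065 under equal spread, and that with SB202190 against EBSS was 0.164 from those arrays. The cause of the other changes was not tested.

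Over all genes, 532 were called higher and 335 lower in EBSS against RPMI (61.4% higher). These were 961 and 1095 (46.7%) with the authors' series table, 918 and 279 (76.7%) with centring over probes well above background, and 4252 and 23 (99.5%) over all probes. With SB202190 against EBSS, 104 and 342 (23.3% higher) became 781 and 773 (50.3%), 80 and 551 (12.7%), and 18 and 769 (2.29%), and 203 and 402 (33.6%) from the other 2 arrays alone. With SB202190 against RPMI, 174 and 288 (37.7% higher) became 476 and 777 (38.0%), 194 and 195 (49.9%), and 152 and 90 (62.8%) in the order of the first 3 settings. Calls from 1.5-fold over all genes were 1273 higher and 1055 lower, 589 and 1034, and 620 and 864 in the 3 comparisons.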
